A study of Ovis aries with 6 samples.

Results

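Milk somatic cells, the epithelial cells and leukocytes shed into milk, were studied for 53 genes of apoptosis, tumour necrosis factor (TNF) and NF-kB signalling. The genes are those of 11285 named genes in the table whose symbol belongs to the TNF ligands, TNF receptors and TNF-induced proteins, the TRAF adaptors and FADD, the NF-kB subunits and inhibitors, the inhibitors of apoptosis (BIRC genes), the caspases or the BCL2 family. Each gene is represented by its transcript of highest mean level. The linseed group consists of 3 libraries from 3 Comisana ewes, described as 90 days into lactation with no separate day for each diet, after 3 weeks on hay and a concentrate in which extruded linseed made up 20% of dry matter. The control group consists of 3 libraries from the same ewes after 3 weeks on hay and a commercial concentrate. Each ewe gave 1 library per diet, and the labels put the linseed feeding after the control feeding in all of them, so diet and time cannot be told apart.

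TNF family ligands bind receptors that recruit adaptors of the TRAF and FADD type. From there the signal runs either to NF-kB, a dimeric transcription factor held in the cytoplasm by inhibitor proteins, or to caspases, the proteases that carry out apoptosis. The BCL2 family controls the other route to caspases by guarding or opening the mitochondrial outer membrane, and the BIRC proteins restrain caspases and relay TNF signals. In the udder these pathways are known both for the loss of secretory cells after peak lactation and for the response of leukocytes to infection.

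The deposited values are RPKM, read numbers scaled by transcript length and by the size of the library. Library totals solved from the RPKM steps were 4941935 to 19912996 reads with linseed and 8805705 to 22644050 reads in controls. For a transcript of 2000 nt, a single read stood for 0.0221 to 0.101 RPKM. Milk protein genes took 34.9%, 28.9% and 2.39% of all RPKM in linseed sheep 1, 2 and 3, against 59.4%, 41.2% and 8.27% in control sheep 1, 2 and 3, so sheep 3 stood apart under both diets. Of 8 markers of mammary epithelium 3 had a row (EPCAM, KRT8 and ELF5), and all 3 were above 0 in every library. The T and NK cell markers, 8 of 13 with a row, summed to 96.4, 67.1 and 157.4 RPKM in linseed sheep 1, 2 and 3, against 8.58, 165.8 and 644.1 RPKM in control sheep 1, 2 and 3. The macrophage markers, 8 of 12 with a row, summed to 778.1 to 1871 RPKM with linseed, against 106.8 to 1103 RPKM in controls, and the neutrophil markers, 7 of 10 with a row, to 2362 to 3455 RPKM with linseed, against 870.6 to 1568 RPKM in controls. Without LTF, which is also a milk protein gene and gave 1146 RPKM in control sheep 1, the neutrophil sums were 3188, 2578 and 2357 RPKM in linseed sheep 1, 2 and 3, against 421.9, 782.9 and 1025 RPKM in control sheep 1, 2 and 3. The 7 B and plasma cell markers summed to 6.49 to 25.9 RPKM with linseed, against 1.199 to 25.9 RPKM in controls. The erythrocyte marker ALAS2 was at 0 in all 6 libraries. Control sheep 1 had the lowest macrophage and T and NK cell sums, and control sheep 3 the highest T and NK cell sum. In bulk RNA, fewer cells of a type and less RNA per cell cannot be told apart.

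Of the 53 genes, 42 averaged at least 1 RPKM and were tested with limma on log2(RPKM + 1), within a fit of 15891 transcripts. No gene of the set passed an adjusted p of 0.05 (Benjamini-Hochberg), as no transcript did (percent called 0% higher and 0% lower). With the sheep as a block in the limma fit, 3 of 42 genes (7.14%), BIRC3 and CASP8 among them, were called lower with linseed where 1.34% of all transcripts were called lower, and 0 of 42 were called higher where 1.28% of all transcripts were. An unadjusted p under 0.05 without the block was found for 4 genes higher and 4 lower (9.52% each), where 8.50% and 7.00% of all transcripts were higher and lower. Of the 42 genes, 11 were higher in all 3 sheep and 11 lower in all 3 (26.2% each), beside 23.0% and 26.2% of all transcripts. Every linseed library lay above every control library for 5 genes (11.9%, beside 13.3% of all transcripts) and below for 3 (7.14%, beside 7.83%). The median log2 change of the 42 genes was -0.29, beside -0.12 over all transcripts. These shares lay close to those of the whole table, except for the calls under the block, and no test of that difference was made. The 42 genes had 127 to 91957 reads over the 6 libraries, and 19 of them had under 20 reads in at least 1 library.

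**Figure D1:**
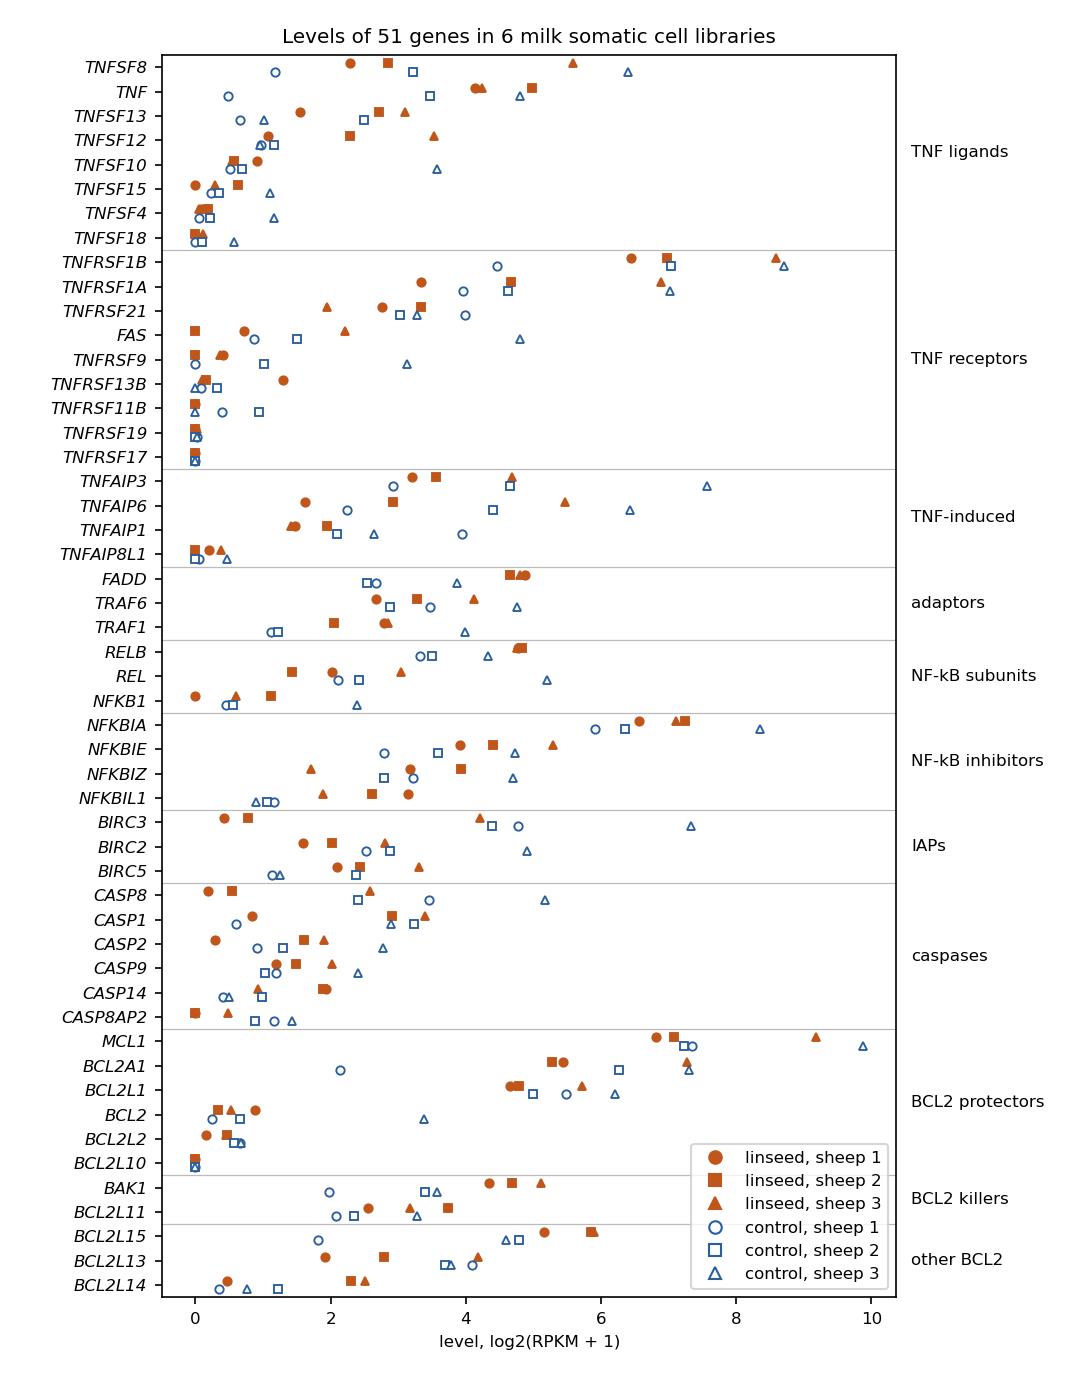
Level of 51 of the 53 genes, as log2(RPKM + 1), in 3 linseed libraries (filled) and 3 control libraries (open), with a marker shape for each sheep. MCL1 and TNFRSF1B sit at the right, at means of 345 and 194 RPKM, and the triangles of control sheep 3 lie at the high end for many genes.

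By mean RPKM over all libraries, the survival gene MCL1 was the most abundant of the set at 345 RPKM, followed by the TNF receptor gene TNFRSF1B at 194 and the NF-kB inhibitor gene NFKBIA at 141. Next came BCL2A1 at 78.3, TNFRSF1A at 52.98, TNFAIP3 at 43.8 and BCL2L1 at 41.5 RPKM. Their ranges over libraries overlapped, from 112 to 938 RPKM for MCL1 and from 20.9 to 416 RPKM for TNFRSF1B. Within libraries, MCL1 lay above TNFRSF1B in 6 of 6, while TNFRSF1B lay above NFKBIA in 3 of 6 and TNFAIP3 above BCL2L1 in 1 of 6, so the order of those other pairs by mean did not hold in each library. MCL1 and BCL2L1 had at least 24.1 RPKM in every library, while BCL2A1 went as low as 3.40 RPKM in control sheep 1.

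Among the ligands, TNF, the cytokine that names the pathway, had 16.6, 30.4 and 17.9 RPKM in linseed sheep 1, 2 and 3, against 0.393, 10.1 and 26.9 RPKM in control sheep 1, 2 and 3. It was higher with linseed in sheep 1 and 2 and lower in sheep 3, and the control library of sheep 1 stood far below the other 5 libraries, with 15 reads. The log2 change was 1.53 ± 0.95 (SE; adjusted p = 0.433 in limma), and it was 0.31 without control sheep 1. TNFSF12, which encodes the cytokine TWEAK, had 1.10, 3.88 and 10.6 RPKM in linseed sheep 1, 2 and 3, against 0.956, 1.23 and 0.948 RPKM in control sheep 1, 2 and 3. It was higher in all 3 sheep, though linseed sheep 1 lay below control sheep 2 (log2 change 1.27 ± 0.66 SE; adjusted p = 0.369 in limma). Its other transcripts did not follow it in every sheep: XM_012185664.2 had 2.71 RPKM in linseed sheep 2, against 5.08 RPKM in control sheep 2, and XM_012185665.2 had 1.011 RPKM in linseed sheep 3, against 1.06 RPKM in control sheep 3. TNFSF13, which encodes the B cell survival factor APRIL and lies beside TNFSF12, was also higher in all 3 sheep (log2 change 1.07 ± 0.68 SE; adjusted p = 0.443 in limma).

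TNFSF10, which encodes the death ligand TRAIL, had 0.884, 0.487 and 0.463 RPKM in linseed sheep 1, 2 and 3, against 0.429, 0.606 and 10.8 RPKM in control sheep 1, 2 and 3. The control library of sheep 3 was 12.3 times the next highest, and the log2 change of -0.91 ± 0.75 (SE) became 0.08 without it. TNFSF8, a ligand of activated lymphocytes and myeloid cells, had 3.89, 6.21 and 47.0 RPKM in linseed sheep 1, 2 and 3, against 1.25, 8.28 and 83.3 RPKM in control sheep 1, 2 and 3. Sheep 3 was the high animal under both diets, and the change of -0.02 ± 1.22 (SE) turned to 0.04 with median-of-ratios scaling and to 1.38 without control sheep 3. Without both libraries of sheep 3 the TNFSF8 change was 0.38. Of the 8 ligand genes 5 were tested: TNFSF12 and TNFSF13 were higher in every sheep, 0 were lower in every sheep, and the median of the 5 log2 changes was 1.07.

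The main receptors were abundant and varied more between sheep than between diets. TNFRSF1B, the TNF receptor of leukocytes, had 86.3, 124.7 and 384.8 RPKM in linseed sheep 1, 2 and 3, against 20.9, 130.7 and 415.6 RPKM in control sheep 1, 2 and 3. The value of sheep 1 was higher with linseed, those of sheep 2 and 3 nearly equal, and the groups overlapped (log2 change 0.61 ± 1.00 SE; adjusted p = 0.785 in limma). Without control sheep 1 the change was -0.53, the sign turned round, and without both libraries of sheep 1 it was -0.09. TNFRSF1A, the receptor that nearly all cells carry and that can signal death, had 9.14, 24.4 and 117.4 RPKM in linseed sheep 1, 2 and 3, against 14.5, 23.6 and 128.9 RPKM in control sheep 1, 2 and 3. Each sheep kept its own level (log2 change -0.23 ± 1.00 SE, 95% interval -2.42 to 1.96), and the sign turned without control sheep 3 (0.68) or linseed sheep 1 (0.58). With both libraries of a sheep left out it did not turn, at -0.04, -0.37 and -0.28 without sheep 1, 2 and 3.

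The death receptor gene FAS had 0.654, 0 and 3.61 RPKM in linseed sheep 1, 2 and 3, against 0.821, 1.84 and 26.8 RPKM in control sheep 1, 2 and 3. It was lower with linseed in all 3 sheep (log2 changes of -0.14, -1.504 and -2.59), on 4, 0 and 89 reads with linseed, against 23, 20 and 351 reads in controls. Its adjusted p in limma was 0.474, or 0.122 with the sheep as a block, and the log2 change of -1.41 ± 0.97 (SE) became -0.21 without control sheep 3. The change was -0.82 without both libraries of sheep 3. TNFRSF9, a costimulatory receptor of activated T cells, had 0.328, 0 and 0.285 RPKM in linseed sheep 1, 2 and 3, against 0, 1.013 and 7.76 RPKM in control sheep 1, 2 and 3. Its change of -1.12 ± 0.70 (SE) was -0.25 without control sheep 3. TNFRSF21, a death receptor also known as DR6, had its highest level in control sheep 1, at 14.9 RPKM, where the T cell and macrophage markers were lowest (log2 change -0.75 ± 0.62 SE). Of 9 receptor genes 5 were tested, with 0 higher and 1 lower in all 3 sheep.

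Among the adaptors, FADD, which couples death receptors to caspase-8, was higher with linseed in every sheep. It had 28.5, 24.0 and 27.0 RPKM in linseed sheep 1, 2 and 3, against 5.40, 4.78 and 13.7 RPKM in control sheep 1, 2 and 3. The linseed libraries lay close together and all above the controls, at a mean of 26.5 ± 2.25 RPKM, against 7.94 ± 4.95 RPKM in controls (SD, n = 3 each). The log2 change was 1.75 ± 0.61 (SE, 95% interval 0.42 to 3.08), with an adjusted p of 0.264 in limma and of 0.0731 with the sheep as a block. TRAF6, the ubiquitin ligase that serves Toll-like and interleukin receptors, had 5.38, 8.65 and 16.5 RPKM in linseed sheep 1, 2 and 3, against 10.0, 6.37 and 26.0 RPKM in control sheep 1, 2 and 3. The groups overlapped and the sheep differed in direction (log2 change -0.34 ± 0.69 SE), with a change of 0.18 without control sheep 3 and of -0.20 without both libraries of sheep 3. TRAF1, an NF-kB-induced adaptor, was higher in sheep 1 and 2 and lower in sheep 3 (log2 changes of 1.67, 0.84 and -1.14; mean change 0.46 ± 0.79 SE), and the mean change was -0.04 without control sheep 1.

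The NF-kB subunit genes did not move together. RELB, the partner of the alternative NF-kB pathway, had 26.2, 27.4 and 26.0 RPKM in linseed sheep 1, 2 and 3, against 9.03, 10.3 and 19.1 RPKM in control sheep 1, 2 and 3. All linseed libraries lay above all controls, with a linseed spread of 0.784 RPKM (SD, n = 3) against 5.48 RPKM in controls, and the log2 change of 1.07 ± 0.58 (SE) had an adjusted p of 0.382 in limma. The change was 0.49 with the milk protein genes taken out of the library total. REL, which encodes the lymphoid subunit c-Rel, had 3.07, 1.69 and 7.26 RPKM in linseed sheep 1, 2 and 3, against 3.30, 4.36 and 35.9 RPKM in control sheep 1, 2 and 3. It was lower in all 3 sheep (log2 changes of -0.08, -0.99 and -2.16), and its mean change of -1.08 ± 0.85 (SE) was -0.10 without control sheep 3. Leaving out both libraries of sheep 3 gave -0.54 for REL. NFKB1, the precursor of the p50 subunit, was at most 4.24 RPKM in any library and at 0 reads in linseed sheep 1 (log2 change -0.56 ± 0.60 SE).

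Of the inhibitors, NFKBIA, which encodes the classical inhibitor IkB-alpha and is itself an NF-kB target, had 93.7, 151.1 and 136.9 RPKM in linseed sheep 1, 2 and 3, against 59.1, 81.0 and 325.5 RPKM in control sheep 1, 2 and 3. Sheep 1 and 2 had more with linseed and sheep 3 less, so the mean change of 0.10 ± 0.72 (SE) had no stable sign: it was -0.51 with the milk protein genes taken out of the library total, -0.46 with quantile normalization, -0.21 with a length correction and 0.84 without control sheep 3. NFKBIE, another cytoplasmic inhibitor, was higher in all 3 sheep, at 24.1 ± 12.6 RPKM with linseed, against 14.2 ± 10.2 RPKM in controls (SD, n = 3 each), less apart than the sheep of a diet were among themselves (log2 change 0.83 ± 0.69 SE; adjusted p = 0.553 in limma). NFKBIL1, a gene named for its likeness to the inhibitors, had 7.88, 5.11 and 2.69 RPKM in linseed sheep 1, 2 and 3, against 1.24, 1.07 and 0.858 RPKM in control sheep 1, 2 and 3. The groups did not overlap, on 84 to 147 reads a library with linseed and 25 to 77 in controls. Its log2 change was 1.51 ± 0.56 (SE), with an adjusted p of 0.274 in limma and 0.0813 with the block. NFKBIZ, a nuclear regulator of NF-kB targets, was 2.29 RPKM in linseed sheep 3, against 24.9 RPKM in control sheep 3, and lay at 5.88 to 14.2 RPKM in the other libraries (log2 change -0.63 ± 0.75 SE).

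**Figure D2:**
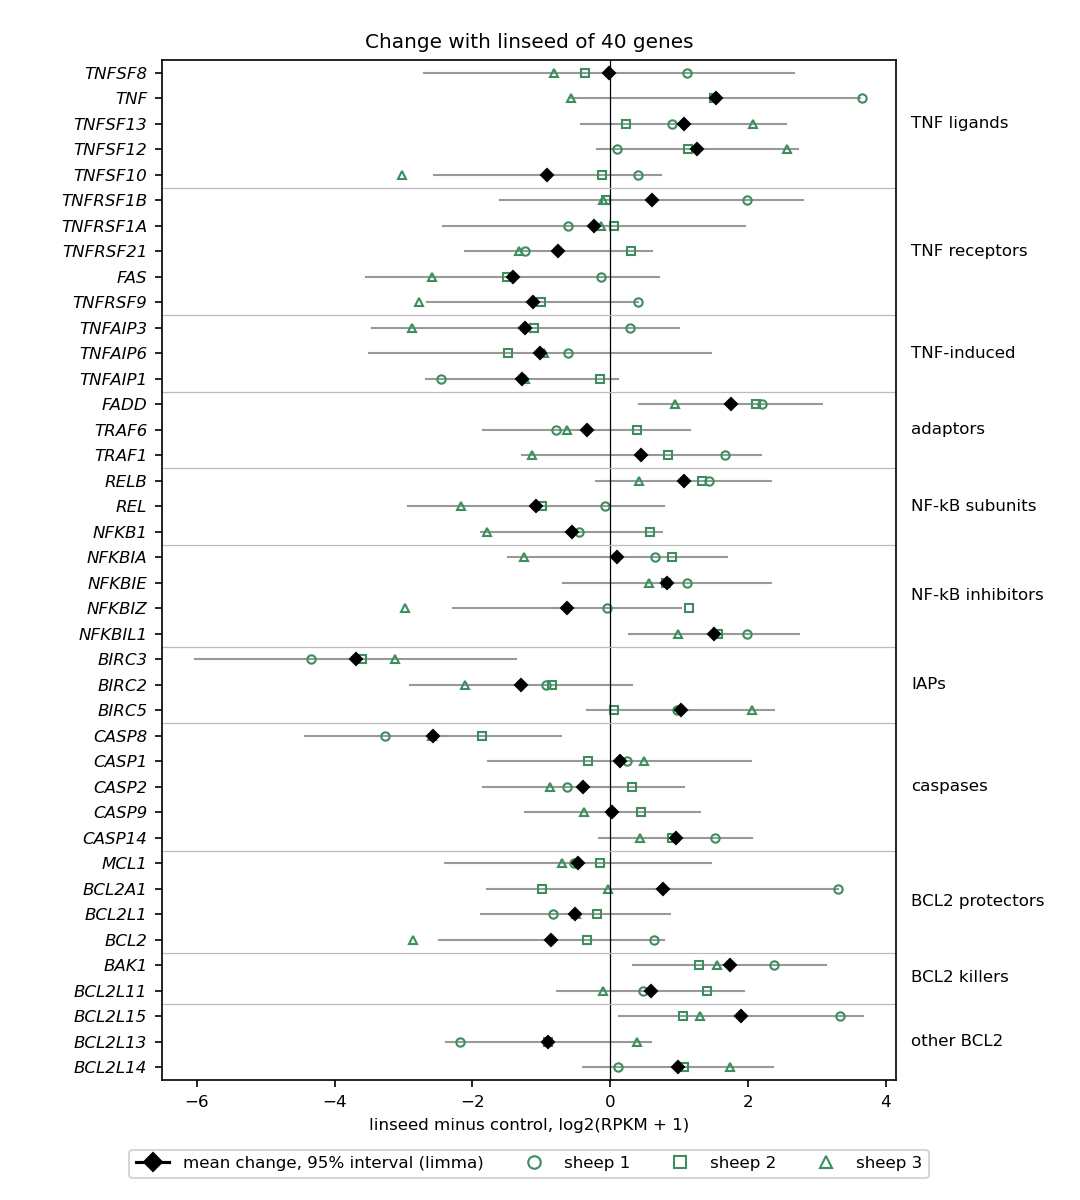
Linseed minus control change of 40 of the 42 genes tested, on the log2(RPKM + 1) scale: diamonds with bars are the mean change and its 95% interval from limma, and open markers are the 3 sheep. BIRC3, at -3.69, has the lowest mean change, and FADD, BAK1, NFKBIL1 and BCL2L15 have all 3 sheep on the right of 0.

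The TNF-induced genes were lower on average, with control sheep 3 as the high library for 2 of the 3 tested. TNFAIP3, which encodes A20, a brake on NF-kB, had 8.21, 10.8 and 24.8 RPKM in linseed sheep 1, 2 and 3, against 6.57, 24.3 and 188.1 RPKM in control sheep 1, 2 and 3. Sheep 1 was slightly higher with linseed and sheep 2 and 3 lower, and the mean change of -1.23 ± 1.014 (SE) was 0.03 without control sheep 3. With both libraries of sheep 3 left out the change was -0.41. TNFAIP6, a secreted hyaluronan-binding protein of inflammation, was lower in all 3 sheep (log2 changes of -0.61, -1.48 and -0.97), and its mean change of -1.02 ± 1.13 (SE) was 0.02 without control sheep 3. Leaving out both libraries of sheep 3 gave -1.05 for TNFAIP6. TNFAIP1, which encodes an adaptor of a cullin ubiquitin ligase, had 1.79, 2.87 and 1.65 RPKM in linseed sheep 1, 2 and 3, against 14.3, 3.29 and 5.23 RPKM in control sheep 1, 2 and 3. Its groups did not overlap, by a narrow margin in sheep 2, and its log2 change was -1.28 ± 0.63 (SE; adjusted p = 0.350 in limma).

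BIRC3, which encodes the ubiquitin ligase cIAP2 that carries TNF signals to NF-kB and away from cell death, had the largest mean change of the genes tested on the log2(RPKM + 1) scale. It had 0.346, 0.715 and 17.6 RPKM in linseed sheep 1, 2 and 3, against 26.3, 19.9 and 160.4 RPKM in control sheep 1, 2 and 3. The linseed libraries all lay below the controls, and sheep 3 was the highest animal under both diets. These values stand on 8, 20 and 1636 reads with linseed, against 2783, 820 and 7954 reads in controls. The log2 change was -3.69 ± 1.06 (SE, 95% interval -6.02 to -1.36), with an adjusted p of 0.263 in limma and of 0.0401 with the sheep as a block (SE 0.53). Leaving out control sheep 3 gave -2.77, and leaving out linseed sheep 3 gave -4.89. With the block, BIRC3 also passed after removal of the milk protein genes from the library total (adjusted p = 0.000864), and not with the other block settings, at 0.0587 to 0.0953. That removal moved the median log2 change of all transcripts to -0.52, and 11.1% of them were then called lower.

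A second BIRC3 transcript, XM_012095320.2, had 0.877, 0.966 and 5.25 RPKM in linseed sheep 1, 2 and 3, against 1.66, 12.5 and 34.8 RPKM in control sheep 1, 2 and 3. It was lower with linseed in each sheep too, and with both transcripts summed the log2 change of BIRC3 was -3.46. BIRC2, the closely related cIAP1 gene, had 1.9998, 3.07 and 5.99 RPKM in linseed sheep 1, 2 and 3, against 4.75, 6.32 and 29.0 RPKM in control sheep 1, 2 and 3. It was lower in all 3 sheep (log2 changes of -0.94, -0.85 and -2.10), with a mean change of -1.30 ± 0.73 (SE; adjusted p = 0.395 in limma, 0.133 with the block) and of -0.56 without control sheep 3. Without both libraries of sheep 3 that change was -0.89. A second BIRC2 transcript had 2.88, 0.747 and 0.790 RPKM in linseed sheep 1, 2 and 3. In control sheep 1, 2 and 3 it had 0.676, 1.09 and 0.702 RPKM. That transcript was higher with linseed in sheep 1 and 3 and lower in sheep 2. Its reads in linseed sheep 1 were 67, beside 49 for the transcript used. How the authors divided reads between these related genes is not given in the sources used here. BIRC5, which encodes survivin, a protein of dividing cells, had 3.29, 4.41 and 8.91 RPKM in linseed sheep 1, 2 and 3, against 1.198, 4.18 and 1.39 RPKM in control sheep 1, 2 and 3. It was higher in all 3 sheep, by a small margin in sheep 2 (log2 change 1.03 ± 0.62 SE; adjusted p = 0.420 in limma).

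CASP8, the initiator caspase that death receptors activate through FADD, had 0.138, 0.457 and 4.99 RPKM in linseed sheep 1, 2 and 3, against 9.94, 4.30 and 35.0 RPKM in control sheep 1, 2 and 3. It was lower with linseed in each sheep, although linseed sheep 3 lay above control sheep 2. The reads were 2, 8 and 291 with linseed, against 659, 111 and 1088 in controls. The log2 change was -2.57 ± 0.85 (SE, 95% interval -4.43 to -0.71), with an adjusted p of 0.263 in limma and of 0.0428 with the block. Over the leaving out of each library in turn it ranged from -3.31 (without linseed sheep 3) to -1.83 (without control sheep 3). The 2 other CASP8 transcripts were also lower with linseed in each sheep: XM_012142484.2 had 0.271, 0.56 and 1.48 RPKM in linseed sheep 1, 2 and 3, against 0.650, 5.32 and 11.5 RPKM in control sheep 1, 2 and 3. FADD, its partner at the receptor, was higher with linseed in the same libraries. With the block, CASP8 also passed after removal of the milk protein genes, at an adjusted p of 0.00268 in limma, and not with the other block settings, at 0.0587 to 0.0953. With that removal 11.1% of all transcripts were called lower.

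The initiator caspase of the mitochondrial route, CASP9, had 1.29, 1.79 and 3.06 RPKM in linseed sheep 1, 2 and 3, against 1.28, 1.04 and 4.27 RPKM in control sheep 1, 2 and 3. Its groups overlapped throughout (log2 change 0.03 ± 0.58 SE, 95% interval -1.24 to 1.30). CASP1, the inflammasome protease, had a log2 change of 0.14 ± 0.87 (SE), with its lowest levels in sheep 1 under both diets, at 0.790 RPKM with linseed, against 0.518 RPKM in the control. CASP14, a caspase of epithelial differentiation, was higher in all 3 sheep at low levels, with 0.892 to 2.83 RPKM with linseed, against 0.333 to 0.978 RPKM in controls. The median log2 change of the caspase group, with 7 genes tested, was -0.39.

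**Figure D3:**
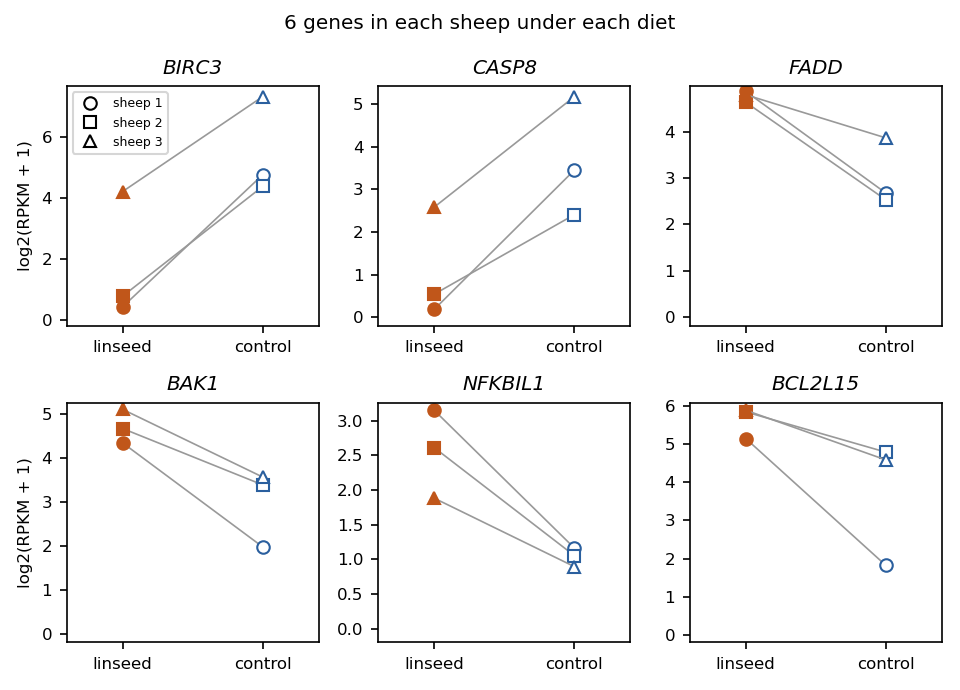
Levels, as log2(RPKM + 1), of 6 genes in each sheep under linseed (left, filled) and control (right, open), with a line joining the libraries of a sheep. The lines of BIRC3 and CASP8 are lower at the linseed end in all 3 sheep, and those of FADD, BAK1, NFKBIL1 and BCL2L15 are higher there.

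The protective BCL2 genes gave no common direction. MCL1, a short-lived survival protein on which neutrophils and plasma cells rely, had 111.7, 134.1 and 577.4 RPKM in linseed sheep 1, 2 and 3, against 161.6, 149.0 and 937.7 RPKM in control sheep 1, 2 and 3. It was lower in all 3 sheep (log2 changes of -0.53, -0.15 and -0.70), a difference well inside the spread among ewes (mean change -0.46 ± 0.88 SE, 95% interval -2.39 to 1.47), and the change was 0.40 without control sheep 3. Without both libraries of sheep 3 the MCL1 change was -0.34. BCL2L1, which encodes BCL-XL, had 24.1, 26.7 and 51.4 RPKM in linseed sheep 1, 2 and 3, against 43.7, 30.7 and 72.6 RPKM in control sheep 1, 2 and 3. It too was lower in each sheep, with a change of -0.51 ± 0.62 (SE; adjusted p = 0.700 in limma). BCL2A1, an NF-kB-induced protector of leukocytes, had 42.5, 37.9 and 153.2 RPKM in linseed sheep 1, 2 and 3, against 3.40, 76.1 and 156.5 RPKM in control sheep 1, 2 and 3. Only the pair of sheep 1 was higher with linseed, by 3.31 on the log2 scale, and the mean change of 0.76 ± 1.16 (SE) was -0.79 without control sheep 1. BCL2 itself was under 1 RPKM in 5 libraries and at 9.43 RPKM in control sheep 3, and its change of -0.85 ± 0.74 (SE) was 0.12 without that library.

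BAK1, which encodes a pore-forming killer of the mitochondrial membrane, was higher with linseed in every sheep. It had 19.4, 24.6 and 33.6 RPKM in linseed sheep 1, 2 and 3, against 2.93, 9.49 and 10.9 RPKM in control sheep 1, 2 and 3. The groups did not overlap, with means of 25.8 ± 7.21 RPKM with linseed and 7.76 ± 4.24 RPKM in controls (SD, n = 3 each). The log2 change was 1.73 ± 0.64 (SE, 95% interval 0.33 to 3.14), with an adjusted p of 0.273 in limma and of 0.0714 with the block, and it was 1.19 with the milk protein genes taken out. BCL2L11, which encodes the BH3-only killer BIM, had 4.88, 12.4 and 8.04 RPKM in linseed sheep 1, 2 and 3, against 3.23, 4.06 and 8.73 RPKM in control sheep 1, 2 and 3. The groups overlapped (log2 change 0.59 ± 0.62 SE), and taking out the milk protein genes gave a change of 0.07.

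Of the less studied BCL2 relatives, BCL2L15 had 34.5, 56.6 and 58.4 RPKM in linseed sheep 1, 2 and 3, against 2.53, 26.7 and 23.1 RPKM in control sheep 1, 2 and 3. All linseed libraries were above all controls (log2 change 1.90 ± 0.81 SE; adjusted p = 0.302 in limma, 0.0776 with the block), and the change was 0.94 without control sheep 1. BCL2L14 was higher in all 3 sheep, at 3.00 ± 2.30 RPKM with linseed, against 0.767 ± 0.532 RPKM in controls (SD, n = 3 each; log2 change 0.98 ± 0.63 SE). BCL2L13, a mitochondrial protein tied to mitophagy, had log2 changes of -2.19, -0.90 and 0.40 in sheep 1, 2 and 3 (mean change -0.90 ± 0.68 SE).

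**Figure D4:**
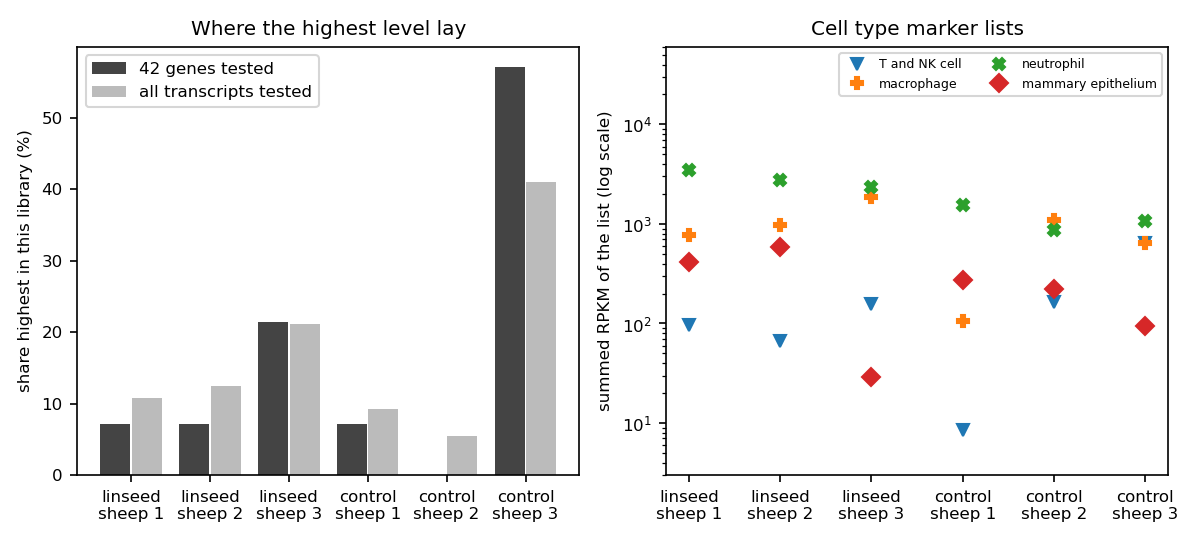
Left, share of the 42 genes tested and of all transcripts tested whose highest level was in each library, in percent. Right, summed RPKM of 4 cell type marker lists in each library on a log scale. Control sheep 3 held the highest level of 57.1% of the 42 genes and had the highest T and NK cell sum.

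The library of highest level was control sheep 3 for 24 of the 42 genes (57.1%), where it was for 41% of all transcripts. The 24 included BIRC3, TNFAIP3, FAS, TNFRSF9, TNFSF10, BCL2 and REL, for which that library was 4.94 to 12.3 times the next. Linseed sheep 3 was highest for 9 genes, among them BAK1, BCL2L15 and BIRC5, and control sheep 2 for 0. The lowest level lay in control sheep 1 for 19 genes (45.2%, beside 33.1% of all transcripts) and in linseed sheep 1 for 13 (31%, beside 33.4%). T and NK cell markers summed to 644.1 RPKM in control sheep 3, against 8.58 RPKM in control sheep 1, and their part in the levels of these genes was not tested. Without control sheep 3 the median log2 change of the 42 genes was 0.43, where that over all transcripts was 0.19. That setting kept linseed sheep 3, so it also compares different ewes. Without both libraries of sheep 3 the median over all transcripts was 0.02. The median change was 0.18, 0.06 and -0.66 in sheep 1, 2 and 3, beside 0.02, 0.03 and -0.22 over all transcripts.

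The transcripts of BIRC3 and CASP8 were 4676 and 2929 nt long, against a median of 2297 nt for all transcripts tested, and those of FADD and BAK1 974 and 2622 nt. After a length correction the log2 changes were -3.27 for BIRC3, -2.36 for CASP8, 1.38 for FADD and 1.90 for BAK1. Each of the 4 genes kept its direction in all alternatives run, which included other scalings and the leaving out of each library or sheep. In the gene table used for names, 25 of the 53 genes overlap another gene, CASP8 and TNF with a long non-coding RNA and BAK1 with another coding gene, and without stated strand use the reads of such pairs cannot be told apart.

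Other genes of these pathways, in a list of 60 of which 41 had a row and 36 were tested, were lower more often than higher: 17 of 36 (47.2%) in all 3 sheep, where 26.2% of all transcripts were, and 5 (13.9%) higher, where 23.0% of all transcripts were. None was called in limma without the block. At an unadjusted p under 0.05, 2 were higher and 1 lower (5.56% and 2.78%, beside 8.50% and 7.00% of all transcripts). With the block 1 was called higher and 1 lower (2.78% each, beside 1.28% and 1.34% of all transcripts). The median log2 change was -0.48. BAD, a BH3-only killer gene, had 71.8, 52.5 and 42.4 RPKM in linseed sheep 1, 2 and 3, against 6.58, 15.6 and 6.15 RPKM in control sheep 1, 2 and 3. All linseed libraries were above all controls (log2 change 2.52 ± 0.61 SE; adjusted p = 0.263 in limma), and BAD was the gene called higher with the block (adjusted p = 0.0441). TAB2, an adaptor that links TRAF6 to the kinase TAK1, had 1.68, 2.36 and 17.9 RPKM in linseed sheep 1, 2 and 3, against 20.3, 10.0 and 71.7 RPKM in control sheep 1, 2 and 3. It was the gene called lower with the block (log2 change -2.22 ± 0.90 SE; adjusted p = 0.292 in limma, 0.0461 with the block), and MAP3K7, the TAK1 gene, had a log2 change of -1.41 ± 0.67 (SE). SHARPIN, a subunit of the ubiquitin ligase that acts at the TNF receptor, had 40.8 to 69.4 RPKM with linseed, against 8.52 to 19.2 RPKM in controls (log2 change 2.05 ± 0.60 SE; adjusted p = 0.263 in limma, 0.0601 with the block).

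Textbook NF-kB targets, 24 of 32 with a row and 21 tested, did not share a direction. Of the 21, 3 (14.3%) were higher and 6 (28.6%) lower in all 3 sheep, beside 23.0% and 26.2% of all transcripts, and the median log2 change of the list was 0.10. By sheep the median was 0.86, -0.99 and -0.90 in sheep 1, 2 and 3, beside 0.02, 0.03 and -0.22 over all transcripts. None passed limma without the block. At an unadjusted p under 0.05, 0 were higher and 5 lower (0% and 23.8%, beside 8.50% and 7.00% of all transcripts). With the block BIRC3 and CXCL8 were called lower (9.52%, beside 1.34% of all transcripts). CXCL8, the neutrophil attractant, had 39.1, 48.0 and 473.5 RPKM in linseed sheep 1, 2 and 3, against 246.4, 411.4 and 2263 RPKM in control sheep 1, 2 and 3. As for BIRC3, sheep 3 was highest under both diets, but linseed sheep 3 lay above control sheep 1 and 2 (log2 change -2.65 ± 1.052 SE; adjusted p = 0.289 in limma, 0.0441 with the block). PTX3, SOD2, PTGS2 and PLAU were lower in all 3 sheep as well, with log2 changes of -2.08 ± 0.74, -1.85 ± 0.74, -1.47 ± 0.65 and -1.48 ± 0.81 (SE). The targets NFKBIE, RELB and ICAM1 were higher in all 3 sheep instead.

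The 11 genes under the filter were TNFSF15, TNFSF4, TNFSF18, TNFRSF13B, TNFRSF11B, TNFRSF19, TNFRSF17, TNFAIP8L1, BCL2L2, BCL2L10 and CASP8AP2. BCL2L10 and TNFRSF17, the receptor of plasma cells, were listed at 0 in all 6 libraries. TNFRSF11B, the decoy receptor osteoprotegerin, had 0 reads in all 3 linseed libraries, against 16, 18 and 0 reads in control sheep 1, 2 and 3. CASP8AP2 had 0, 0 and 0.396 RPKM in linseed sheep 1, 2 and 3, against 1.24, 0.845 and 1.68 RPKM in control sheep 1, 2 and 3. Symbols of the same families with no matched row, such as RELA, NFKB2, BAX, BID and TRAF2, are 31 of 84 in the gene table and are not analysed here.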

How the data were processed

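The authors deposited 1 table of RPKM values for 49705 RefSeq transcripts in 6 libraries from pellets of 250 ml of milk. Per the submitters' processing notes, Trimmomatic 0.33 was among the tools. No source used here gives the aligner, the build or the strand use of the counting. Libraries were placed by the letter and number of their titles. Symbols came from a RefSeq gene table (ARS-UI_Ramb_v3.0), used for names and overlaps alone: 15836 transcripts (31.9%) matched.

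Library totals, transcript lengths and reads were solved from the RPKM steps with a tolerance of 0.002 reads, for 15890 of the 15891 transcripts that averaged 1 RPKM or more. The fit used limma 3.58.1 (R 4.3.3) on log2(RPKM + 1), which understates changes of low genes, with a mean-variance trend and p adjusted over all transcripts by Benjamini-Hochberg. The solving of reads and the fit without the block were run on simulated data. The data simulated for the fit held no differences between ewes, and the fit with the block was not run on them. The fit without a block has 4 residual degrees of freedom and that with the sheep as a block 2, before limma adds what it borrows from the other transcripts. The pairing comes from the animal identifiers, and deviations of paired libraries correlated at 0.18, 0.25 and 0.40 across transcripts, against -0.40 to 0.24 for libraries of different sheep (0.24 for linseed sheep 2 with control sheep 1).

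Genes were named by p, by abundance within each role and by a call in either fit. The members and lists were chosen with earlier results of these data known. Alternatives covered pseudocount, filter, scaling, length, transcript choice and left-out libraries. The main fit treats the paired libraries of a ewe as independent, so its SE and p-values include differences in level between the 3 ewes. With the sheep as a block, they reflect in part how far the linseed minus control change varied among the 3 ewes. In both fits limma also draws the variance of each transcript toward the trend over all transcripts. The SE and p-values with the block therefore do not rest on the 3 ewes alone. Each SE after ± is from the main fit and is not that of the paired change. For TNFAIP6 the SE was 1.13, against 0.52 with the block, and for BCL2L1 0.62, against 0.55. Results for some members are not reported here, and counts and medians over the set include them.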

Additional observations from a re-analysis of the deposited data

How the results depend on the processing

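With the sheep as a replicate block, 203 transcripts were called higher and 213 lower (1.28% and 1.34%). Among them were 3 of the 42 genes (7.14%, lower), 1 and 1 of the 36 other pathway genes (2.78% each, higher and lower) and 2 of 21 NF-kB targets (9.52%, lower). BIRC3 is counted both among the 42 genes and among the targets. With the block and the milk protein genes left out, 251 were called higher and 1761 lower (1.58% and 11.1% of all transcripts), with 6 of the 42 genes lower (14.3%; BIRC3, CASP8, BIRC2 and FAS among them), 1 and 4 of the 36 other pathway genes higher and lower (2.78% and 11.1%), and 6 of 21 NF-kB targets lower (28.6%). Under the other settings run, the block ones included, 0 transcripts were called. Leaving out the milk protein genes moved the median of all transcripts to -0.52, against -0.12 without that step, that of the 42 genes to -0.75, and those of BCL2 killers to 0.63, BCL2 protectors to -1.06, TNF-induced genes to -1.77 and caspases to -0.73. It left 7 genes higher in all 3 sheep, and a minimum mean of 5 RPKM left 5.

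The caspase median was -0.080 with the length correction, -1.97 with the minimum of 5 RPKM, -0.69 with no filter, -0.73 with a pseudocount of 0.1 and -0.74 with summed transcripts or with the block and voom, a limma count method added after seeing the data. The inhibitor of apoptosis median was -2.49 with the minimum of 5 RPKM. The TNF ligand median was -0.10 with no filter and 1.91 with voom, and that of the other BCL2 relatives 2.08 with voom and 1.88 with voom and the block. NFKBIA turned to -0.21 (length correction), -0.51 (milk protein genes left out) and -0.46 (quantile normalization). TNFSF8 turned to 0.38 (length correction), 0.041 (median of ratios), 0.11 (pseudocount 0.1) and 0.34 (voom). Genes under 5 RPKM on average have no value under that minimum. The causes were not tested.

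With 1 library or 1 sheep left out, the median of the 42 genes ran from -0.72 to 0.43, and 12 to 18 genes were lower in the remaining pairs. Group medians ran from -0.86 to 0.26 (protectors), -1.75 to -0.56 (inhibitors of apoptosis), 0.31 to 1.52 (TNF ligands), -2.08 to 0.019 (TNF-induced), -0.77 to 0.16 (caspases) and 0.60 to 1.63 (other BCL2 relatives). Each setting was run for the 41 genes chosen by the naming rule, and 11 of these changed sign in at least 1, with these ranges over left-out libraries and sheep: BCL2 (-1.59 to 0.15), BCL2A1 (-0.79 to 1.79), MCL1 (-1.20 to 0.40), NFKBIA (-0.38 to 0.84), TNFAIP3 (-2.29 to 0.027), TNFAIP6 (-2.08 to 0.019), TNFRSF1A (-1.19 to 0.68), TNFRSF1B (-0.53 to 1.59), TNFSF8 (-1.23 to 1.38), TRAF1 (-0.15 to 1.39) and TRAF6 (-0.75 to 0.18). MCL1, TNFAIP3, TNFAIP6, TNFRSF1A and TRAF6 turned only when 1 library of a pair was left out, and stayed negative without any whole sheep. Outside the 41, the sign also turned for TNFSF10 (0.079), NFKB1 (0.069) and CD27 (0.15) without control sheep 3, for NFKBIZ without sheep 3 (0.55), and for CASP1 (-0.24) and CASP9 (-0.36) with the milk protein genes left out. Low reads limit CASP8 and BIRC3 with linseed, at 2 to 20 reads in sheep 1 and 2.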

Other observations

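Some of the other pathway genes that were lower in all 3 sheep (17 of 36, 47.2%, beside 26.2% of all transcripts) are given here, chosen after their values were seen and called in neither fit. MDM2, the ubiquitin ligase that restrains p53, had 1.04, 2.05 and 12.9 RPKM in linseed sheep 1, 2 and 3, against 11.5, 6.20 and 22.0 RPKM in control sheep 1, 2 and 3 (log2 change -1.53 ± 0.79 SE; adjusted p = 0.368 in limma, 0.101 with the sheep as a block). BNIP3L, a mitophagy receptor, had 3.61, 7.66 and 36.1 RPKM in linseed sheep 1, 2 and 3, against 29.3, 26.3 and 38.2 RPKM in control sheep 1, 2 and 3, so sheep 3 barely differed between diets. The kinase gene TBK1 and the deubiquitinase gene CYLD had log2 changes of -1.14 ± 0.71 and -0.95 ± 0.64 (SE).

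The death ligand gene FASLG and CD27, a costimulatory receptor gene of T cells, were highest in control sheep 3, as FAS was. FASLG had 0.500, 0 and 0.792 RPKM in linseed sheep 1, 2 and 3, against 0.232, 1.404 and 18.0 RPKM in control sheep 1, 2 and 3. CD27 had 23.1 RPKM in control sheep 3 and at most 1.396 RPKM in any other library, and its log2 change of -1.13 ± 0.92 (SE) was 0.15 without that library. Without both libraries of sheep 3 the CD27 change was -0.04. The ubiquitin ligase subunit gene RBCK1, partner of SHARPIN, had 6.92, 10.5 and 9.50 RPKM in linseed sheep 1, 2 and 3, against 0.549, 3.93 and 8.57 RPKM in control sheep 1, 2 and 3. It was higher in all 3 sheep, by 0.13 on the log2 scale in sheep 3 (mean change 1.24 ± 0.72 SE; adjusted p = 0.404 in limma).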
